A study of Mus musculus with 29 samples.

Results

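Whole luminal tumors of K5VP16;Pparg mice were compared with basal tumors of control mice, 3 libraries against 3, to ask which genes separate bladder tumors that form with and without an active form of Pparg. The 6 libraries are those of the 29 samples in the series that one normalized table holds as basal tumors (CT111, CT113 and CT115) and as whole luminal tumors (CT126, CT132 and CT140). That table has 8 libraries in all, and the remaining ones, CT128 and CT143, are luminal domains cut from lesions that also had a basal-like domain. They took no part in the comparison and are given beside it for reference. Values for each gene are normalized counts and are listed in this order: CT111, CT113, CT115 for basal tumors, CT126, CT132, CT140 for luminal tumors, and CT128, CT143 for the luminal domains.

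All mice drank water with 0.05% BBN, a nitrosamine that causes bladder cancer, for 5 months according to the labels, and the protocol places the end point at 24 weeks. The basal tumors carry the genotype wild type in the labels. The study describes the basal controls of its tumor RNA-seq as VP16;Pparg fl/fl mice, which carry the VP16;Pparg allele but no Cre, and elsewhere, also for expression signatures of tumors, names K5;mTmG controls, which carry Cre and a reporter but no VP16;Pparg, so the genotype of these 3 libraries is not settled. The luminal tumors and the luminal domains carry K5VP16;Pparg+/-: a Krt5 promoter drives a tamoxifen-dependent Cre in basal cells, and the Cre removes a stop cassette in front of a VP16;Pparg fusion that a CAG promoter then expresses from the Rosa26 locus. Tamoxifen was given to adult mutants and controls after the first month of BBN, and the titles place the tumors 4 months on. The fusion is active without ligand, so it differs from the native receptor, and recombination reaches only cells with Krt5 promoter activity. Tumor tissue was laser captured from 5 μm frozen sections, so each library is a mixture of the cells within the captured area. The labels do not say whether the libraries of a group came from separate mice, and p-values measure only the spread between these libraries.

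The urothelium is a layered epithelium with basal cells on the basement membrane, intermediate cells above them and large superficial cells facing the urine. Superficial cells make uroplakins, membrane proteins that form the rigid plaques of the bladder surface, and simple keratins such as Krt8, Krt18 and Krt20. Basal cells make Krt5 and Krt14 and are fixed to the basement membrane by hemidesmosomes. Pparg is a nuclear receptor that binds DNA with Rxra and is best known for fat cell formation and fatty acid handling, and in bladder cancer its activity marks the luminal subtype.

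Normalized totals were 41697200 to 44654300 in basal tumors and 51007900 to 53253000 in luminal tumors, and the number of reads behind them is unknown. Mitochondrially encoded genes made up 2.40 to 3.64% of the total in basal tumors and 2.95 to 4.81% in luminal tumors. A library of each group stood apart. CT140 correlated with the basal tumors (Spearman's rho 0.80 to 0.84 over the genes tested) about as closely as with the other luminal tumors (0.84 to 0.85), whereas CT126 and CT132 reached 0.89 with each other and 0.72 to 0.80 with basal tumors. Among basal tumors, CT113 held the highest lymphocyte and mast cell marker levels, with a summed level of T cell markers of 19076 against 1118 in CT111 and 1468 in CT115. Epithelial genes were present in each library: Cdh1, which encodes E-cadherin, was at 4924, 14343 and 6112 in basal tumors and 20362, 18762 and 6833 in luminal tumors, and Epcam was at 11928, 26392 and 13227 in basal and 22192, 9294 and 14018 in luminal tumors.

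Of 35199 genes in the table, 14631 had at least 10 normalized counts in at least 3 of the 6 libraries and were tested with limma. Adjusted p-values below come from that fit with Benjamini-Hochberg adjustment over all 14631 genes, and log2 fold changes are luminal minus basal on the log2(normalized count + 1) scale. In total 142 genes passed an adjusted p of 0.05, which is 0.971% of those tested. They comprised 84 genes that rose in luminal tumors (0.574%) and 58 that fell (0.396%), and after quantile normalization the split was 53 and 22. The median over all genes tested was -0.10. The rises ranged from 1.79 to 9.99 and the falls from -9.02 to -2.34. None of the 142 genes had overlapping groups, where 10.3% of all genes tested had every luminal tumor above every basal tumor and 11.5% had every one below.

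The number of calls depended on single libraries. Without CT140 the fit called 539 genes (3.68%), of which 170 rose (1.16%) and 369 fell (2.52%), and 135 of the original 142 were among them. CT140 was the luminal tumor closest to the basal tumors by rank correlation. Values without it therefore show dependence on that library and lend no added weight to a gene. Without CT113 it called 82 genes and without CT115 38. Only 4 genes passed without CT111, 1 without CT126 and none without CT132, where 1727 genes had an unadjusted p below 0.05. Of the 142 called genes, 4 were called in none of the 6 leave-one-out fits, 87 in 1, 32 in 2, 15 in 3, 3 in 4 and 1 in 5. The 52 genes that fell and were called in just 1 such fit make up most of the falls, while the rises included 35 called in 1 and 29 in 2. Where leaving out 1 library moved the median of a gene list by over 1.5 times or changed its sign, the range over the 6 leave-one-out fits follows the median in parentheses. Captured areas differ in cell content, so a gene may be lower because fewer cells of a type were captured or because each cell held less RNA, and these cannot be told apart.

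**Figure D1:**
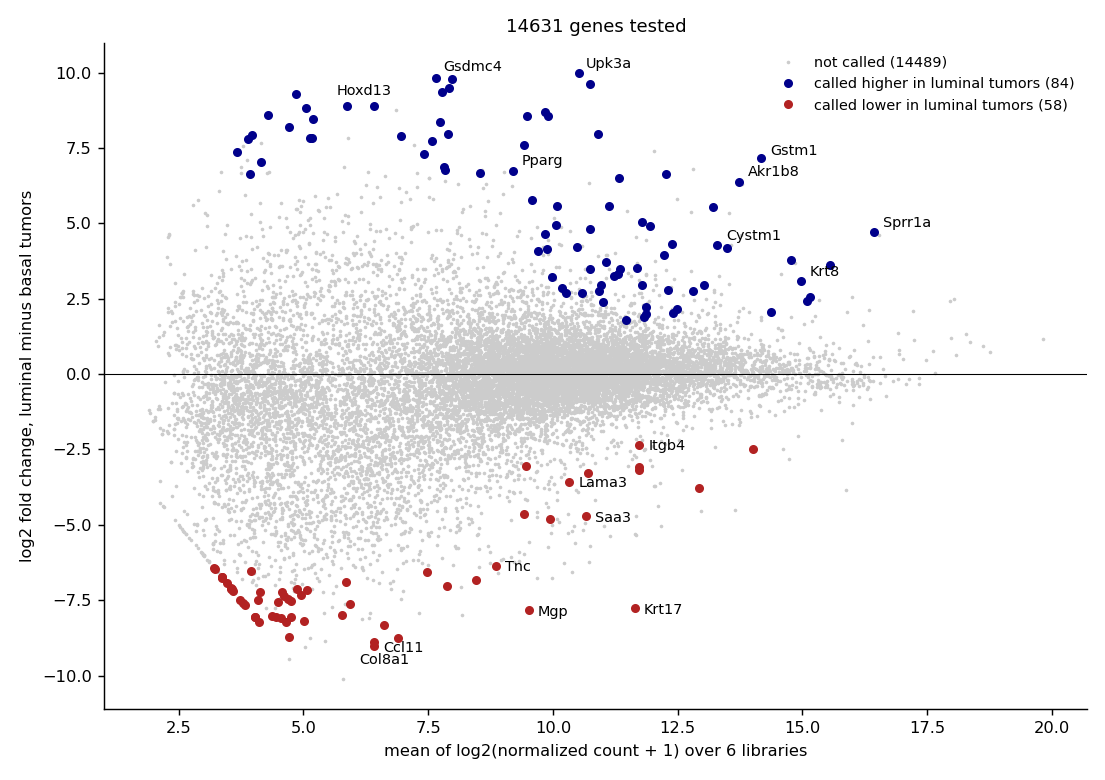
Log2 fold change of luminal over basal tumors (vertical axis) against the mean log2(normalized count + 1) over the 6 libraries (horizontal axis), with 1 point per gene tested. The 84 genes called higher (blue) reach to the right, with Gstm1, Akr1b8 and Sprr1a at high mean levels, and the 58 genes called lower (red) gather further left.

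Pparg itself was low in every basal tumor, at 126, 13.02 and 102, and high in every luminal tumor, at 7216, 8632 and 3579. The luminal domains held 4948 and 4519.8. The groups did not overlap, and Pparg rose by 6.74 log2 units (SE 0.91, adjusted p = 0.036), with a range of 5.73 to 7.32 when single libraries were left out and a call in 3 of 6 such fits. The fusion carries Pparg coding sequence, and how far its transcripts were counted as Pparg is not given in the sources used here.

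Uroplakins and Snx31, a sorting nexin of uroplakin-bearing vesicles, gave the largest rises of any list. All 7 members were tested, 5 rose and none fell, with a median of 9.37 (8.25 to 10.44 when libraries were left out in turn). Upk3a, a plaque component, was at 648, 4.56 and 26.1 in basal tumors and 20129, 218623 and 23168 in luminal tumors, a log2 change of 9.99 (SE 1.64, adjusted p = 0.045). CT111 held the highest basal level and CT132 the highest luminal one, and 1 of 6 leave-one-out fits called it. Upk1a, a tetraspanin of the plaque, was at 36.2, 8.28 and 665 in basal and 73702, 150644 and 10304 in luminal tumors, a log2 rise of 9.63 (SE 1.54, adjusted p = 0.045). Upk2, a small transmembrane plaque protein, was at 10.8, 121 and 62.4 in basal and 31624, 60114 and 3492 in luminal tumors, a log2 rise of 8.70 (SE 1.19, adjusted p = 0.036). In each of these genes the lowest luminal tumor stood above the highest basal tumor.

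Upk3b rose by 9.37 log2 units (SE 1.52, adjusted p = 0.045), from 5.14, 0.933 and 51.7 to 5333, 26467 and 1275. It is also known from mesothelium, where Msln, the defining gene, was at 14308, 63.1 and 6434 in basal and 5.76, 384 and 6.28 in luminal tumors, so Msln was higher in CT111 and CT115 than in any luminal tumor. Snx31 rose by 9.80 log2 units (SE 1.37, adjusted p = 0.036), from 4.35, 0.949 and 55.8 to 6865, 21408 and 2862. Upk1b, the tetraspanin partner of Upk3a, had a log2 fold change of 6.79 (SE 1.61, adjusted p = 0.0887), with CT113 at 8358, against 38.95 and 964 in the other basal tumors and 57232, 145971 and 52309 in luminal tumors. Upk3bl, a gene next to Upk3b, overlapped between the groups at 6502, 4079 and 700.0 in basal and 17142, 1887 and 6584 in luminal tumors. The summed level of the list was 7246, 12573 and 2525 in basal tumors and 212027, 625114 and 99994 in luminal tumors, so every luminal tumor stood above every basal one and CT132 the highest of all. Without CT140 the list again had 5 calls.

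**Figure D2:**
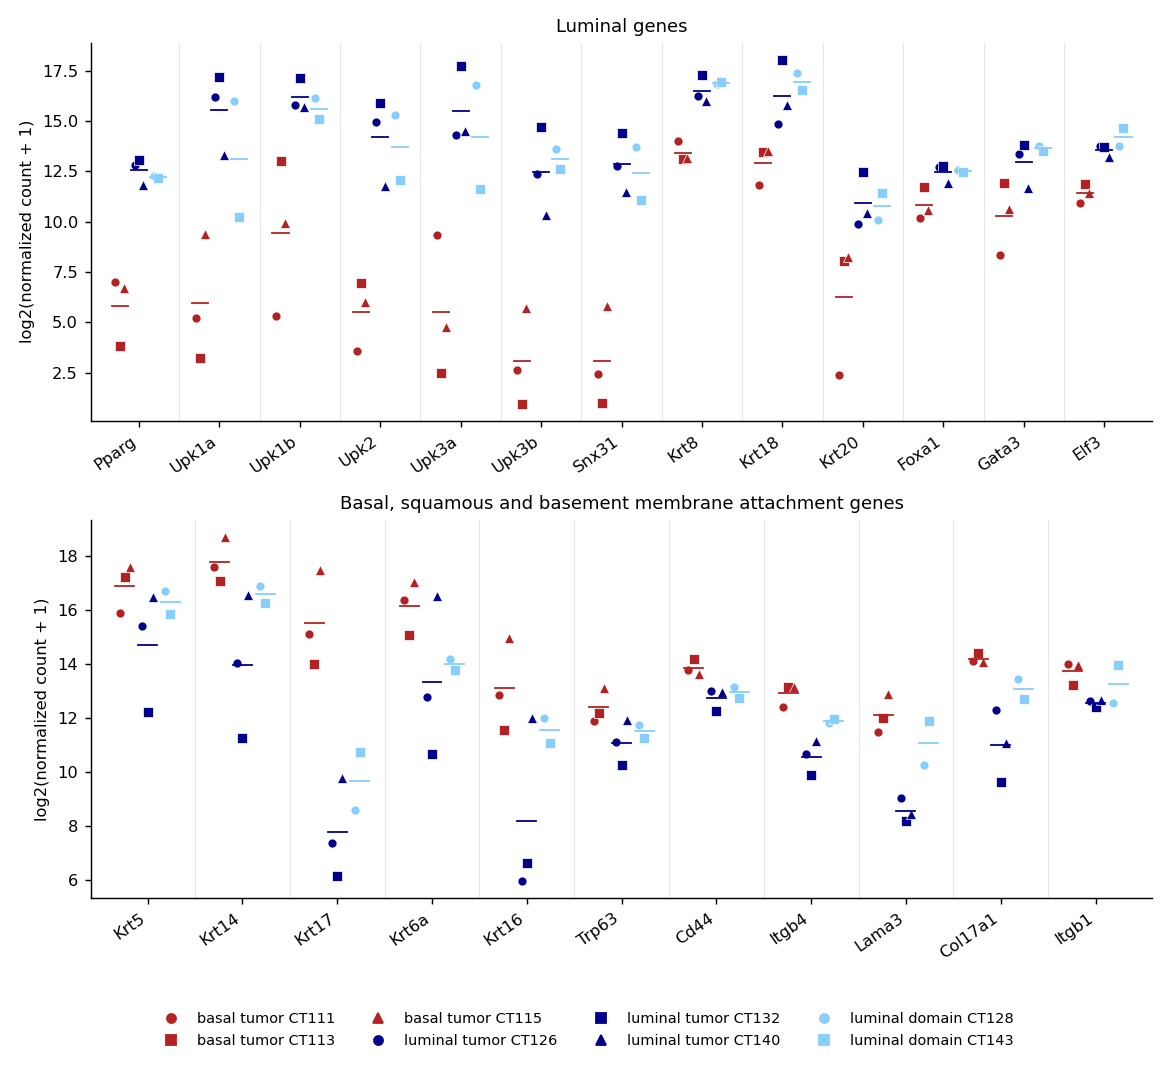
Log2(normalized count + 1) of luminal genes (upper panel) and of basal, squamous and attachment genes (lower panel) in each library, with horizontal bars for group means of the log2 values. Pparg and the 5 uroplakins shown separate the basal tumors (red) from the luminal tumors (dark blue, luminal domains in light blue), while CT140 (dark blue triangle) lies near the basal tumors for Krt5, Krt14, Krt6a and Krt16.

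The promoters of uroplakins are shown because this list had the highest median. The 250 bases before the annotated start of 3 of them follow, from RefSeq on GRCm38.p6, for Upk3a at chr15:85016891-85017140 on the plus strand, Upk1a at chr7:30612735-30612984 on the minus strand and Upk3b at chr5:136038246-136038495 on the plus strand. Capitals mark AGATAA or its reverse complement, the letters of a GATA site.
Upk3a: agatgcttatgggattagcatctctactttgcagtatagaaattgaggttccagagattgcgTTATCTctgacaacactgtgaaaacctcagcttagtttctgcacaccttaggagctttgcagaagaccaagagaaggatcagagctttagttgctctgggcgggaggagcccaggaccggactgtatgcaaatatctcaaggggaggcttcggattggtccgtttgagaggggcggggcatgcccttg
Upk1a: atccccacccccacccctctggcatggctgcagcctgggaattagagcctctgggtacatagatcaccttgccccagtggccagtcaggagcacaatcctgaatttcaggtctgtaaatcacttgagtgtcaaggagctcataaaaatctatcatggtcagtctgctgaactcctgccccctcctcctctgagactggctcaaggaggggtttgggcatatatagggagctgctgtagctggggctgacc
Upk3b: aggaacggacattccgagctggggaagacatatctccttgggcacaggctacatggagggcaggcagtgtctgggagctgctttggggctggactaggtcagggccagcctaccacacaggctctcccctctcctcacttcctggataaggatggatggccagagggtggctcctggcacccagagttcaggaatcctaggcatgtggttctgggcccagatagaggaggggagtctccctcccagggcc
Both strands were searched for AGATAA, for the PPAR element (AGGTCA repeated after any 1 base), for the FOX letters TGTTTAC, for the AP-1 letters TGANTCA and for a CArG box. A GATA match was in the Upk3a window, first base 188 before the start, and in 1 of the windows of Bcl2l14, 164 before the start. Among the 10 largest rises 7 genes had a window, and 2 of them held AGATAA, where 11.4% of all 27025 genes with a window did. None held the PPAR element, which 0.0407% of all genes had, and no other letters searched were found in the windows of the largest rises. Of the 10 largest falls, 8 had a window and none held any of these letters. These matches describe the windows and are not tests of binding.

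Luminal keratins all had higher levels in luminal tumors, and Krt8 rose. All 5 tested members (Krt7, Krt8, Krt18, Krt19 and Krt20) had every luminal tumor above every basal tumor, where 10.3% of all genes tested did. Their median was 3.08, and 1 of them was called. Krt8 was at 16356, 8994 and 9144 in basal tumors and 76853, 159522 and 66249 in luminal tumors and rose by 3.08 log2 units (SE 0.44, adjusted p = 0.0373), with a call in 1 of 6 leave-one-out fits. Its partner Krt18 was at 3562, 11335 and 11490.5 in basal and 29234, 268684 and 57143 in luminal tumors, a log2 change of 3.31 (SE 0.81, adjusted p = 0.0956). Krt20, the keratin of superficial cells, was at 4.24, 266 and 307 in basal and 930.4, 5684 and 1375 in luminal tumors, with a log2 fold change of 4.68 (SE 1.57, adjusted p = 0.193). The high value of Krt18 and Krt20 lay in CT132, and the low basal value of both in CT111. Krt19, made across urothelial layers, had a log2 fold change of 2.55 (SE 0.52, adjusted p = 0.0611) and Krt7 of 2.05 (SE 0.64, adjusted p = 0.17).

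Transcription factors of the luminal program were positive for 15 of 18 tested members, with 3 called higher and a median of 1.43 (0.92 to 1.76). Beside Pparg, Foxq1 rose by 2.97 log2 units (SE 0.48, adjusted p = 0.045), from 1917, 3369.6 and 4147 to 30564, 34356 and 12212. Elf3, an ETS factor of differentiated epithelia, rose by 2.15 log2 units (SE 0.34, adjusted p = 0.045), from 1967, 3709 and 2737 to 13660.1, 13481 and 9564. Of the 6 leave-one-out fits, 1 called Foxq1 and 2 called Elf3. The luminal regulators Foxa1 and Gata3 did not pass the test. Foxa1 was at 1170.2, 3405 and 1543 in basal and 6782, 6837 and 3889 in luminal tumors, with a log2 fold change of 1.62 (SE 0.47, adjusted p = 0.145). Gata3 was at 327, 3909 and 1567 in basal and 10387, 14356 and 3234 in luminal tumors, with a log2 fold change of 2.64 (SE 0.90, adjusted p = 0.201), and the groups overlapped, since CT113 lay above CT140. Ehf, an ETS factor related to Elf3, was above all basal tumors in each luminal tumor with a log2 fold change of 1.43 (SE 0.63, adjusted p = 0.301). The Ehf change ranged from 0.64 to 2.01 when single libraries were left out. Pparg partners and co-regulators had a median of 0.16 (-0.16 to 0.43) over 21 genes, and Pparg was the only member called. Hdac3, a co-repressor component, had a log2 fold change of 1.31 (SE 0.31, adjusted p = 0.0906), at 2545, 2590.0 and 2222 in basal and 4886, 5962 and 7616 in luminal tumors.

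Several of the largest rises lie outside the uroplakins. Gsdmc4, of the gasdermin family of pore-forming proteins, was near 0 in basal tumors at 4.39, 5.47 and 7.67 and at 9244, 7897 and 2982 in luminal tumors, a log2 rise of 9.81 (SE 0.88, adjusted p = 0.0136) that was called in 4 of 6 leave-one-out fits. The luminal domains were lower, at 80.4 and 963. Its neighbours on chromosome 15, named after their values were seen, were Gsdmc3 at 46.7, 962 and 37.1 in basal and 51779, 28254 and 18679 in luminal tumors, with a log2 fold change of 7.96 (SE 1.13, adjusted p = 0.0376), and Gsdmc2 at 100.3, 5189.9 and 62.2 in basal and 74273, 46249 and 45698 in luminal tumors, with a log2 fold change of 7.39 (SE 1.44, adjusted p = 0.0563). These genes are close copies, so reads may have been shared among them and each single value is uncertain. Bcl2l14, a member of the Bcl2 family, rose by 9.50 log2 units (SE 1.20, adjusted p = 0.036), from 1.88, 40.1 and 5.20 to 9619, 12612 and 2312. Tmem246, a Golgi enzyme that modifies the lipid anchors of surface proteins, rose by 8.90 log2 units (SE 1.24, adjusted p = 0.036), from 13.3, 1.45 and 0.719 to 1631, 3745 and 1071, and the luminal domains held 3414 and 3398.

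Among the 10 largest rises, the luminal domains differed most from the whole luminal tumors in Hoxd13, Sp8 and Adh6a. Hoxd13, the homeobox gene at the end of the HoxD cluster, was at 2.57, 1.86 and 0.928 in basal tumors, 1566, 840.2 and 1623 in luminal tumors and 5.47 and 0 in the luminal domains. It rose by 8.90 log2 units (SE 1.08, adjusted p = 0.036) over basal tumors, and against the luminal domains the log2 difference was 8.98 (SE 1.38, adjusted p = 0.682). Hoxd11, a neighbour named after its values were seen, was at 17.9, 7.56 and 10.2 in basal tumors, 428, 8.36 and 375 in luminal tumors and 2.59 and 4.19 in the domains, so it was high in CT126 and CT140 and not in CT132. Sp8, a zinc finger factor of limb and brain development, was at 0, 2.70 and 0 in basal tumors, 1635, 520.4 and 404 in luminal tumors and 94.5 and 0 in the domains, a log2 rise over basal tumors of 8.83 (SE 1.27, adjusted p = 0.0376) and a log2 difference from the domains of 6.17 (SE 1.96, adjusted p = 0.982). Adh6a, an alcohol dehydrogenase, was at 0, 0.567 and 0 in basal tumors, 513, 419.7 and 1715 in luminal tumors and 209 and 0 in the domains, a log2 rise over basal tumors of 9.27 (SE 1.21, adjusted p = 0.036) and a log2 difference from the domains of 5.63 (SE 2.09, adjusted p = 0.982). None of these differences from the domains passed the test over all genes.

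**Figure D3:**
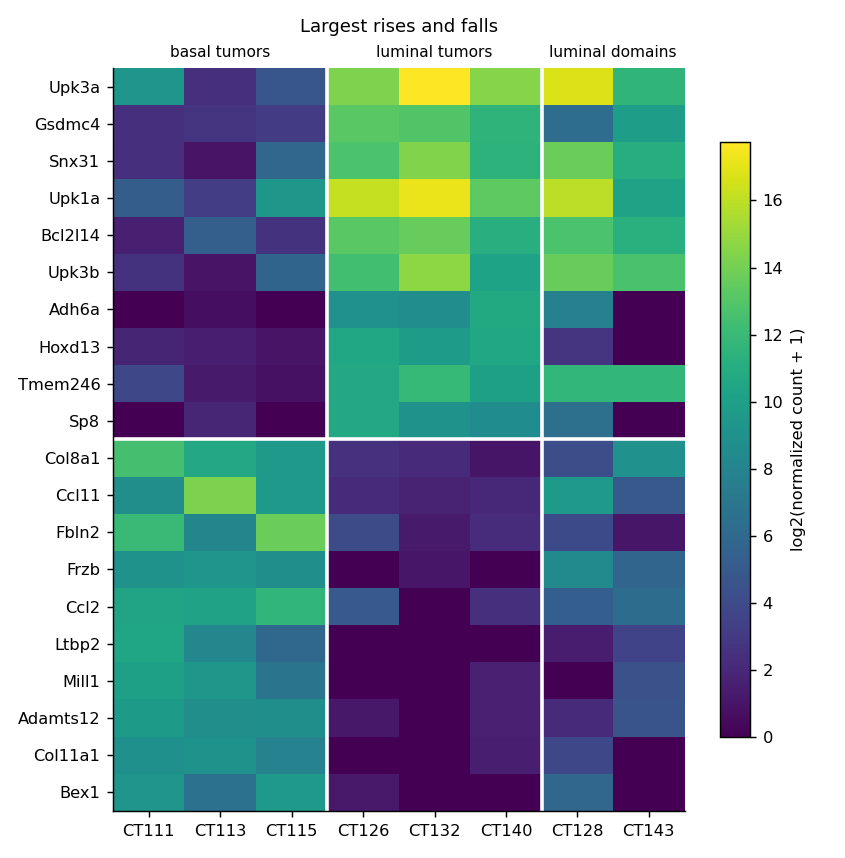
Heat map of log2(normalized count + 1) for the 10 largest rises (upper block) and the 10 largest falls (lower block) in each library. Hoxd13, Sp8 and Adh6a are at 0 in luminal domain CT143 but high in all 3 luminal tumors, and Ccl11 and Frzb are near 0 in the luminal tumors but not in domain CT128.

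Several genes with small adjusted p-values lie outside the 10 largest rises, and those of this paragraph were chosen after their values were seen. Akr1b8, an aldo-keto reductase, was at 826, 1861 and 2102 in basal tumors and 84716, 148442 and 149676 in luminal tumors, with 120356 and 162889 in the luminal domains. It rose by 6.38 log2 units (SE 0.44, adjusted p = 0.00486), with a range of 5.96 to 6.65 when single libraries were left out, and was called in 5 of 6 such fits. Its family member Akr1b3, aldose reductase, rose by 3.62 log2 units (SE 0.49, adjusted p = 0.036), from 6792, 19578 and 19369.9 to 151925, 232143 and 134529. Cystm1, a small membrane protein, rose by 4.28 log2 units (SE 0.34, adjusted p = 0.00742), from 1649, 3243 and 2166 to 42181, 51451 and 39089, and was called in 4 of 6. Vsig2, an immunoglobulin-domain surface protein, rose by 7.96 log2 units (SE 0.89, adjusted p = 0.0275), from 11.7, 11.2 and 21.7 to 2803, 9315 and 2069, and the luminal domains held more still at 23484 and 44410.0. Sdcbp2, a syndecan-binding scaffold protein, rose by 3.70 log2 units (SE 0.39, adjusted p = 0.0275), from 649, 395 and 809 to 7630.1, 6619 and 9102. Psapl1, which resembles the lysosomal protein prosaposin, rose by 3.33 log2 units (SE 0.37, adjusted p = 0.0275), from 657, 871 and 881 to 9946, 9327 and 5499. In all of these genes every luminal tumor stood above every basal tumor. Tmprss2, a membrane serine protease, rose from 1033, 3810.2 and 449.7 to 25133, 26622 and 20238, a log2 change of 4.30 (SE 0.68, adjusted p = 0.045).

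Surface and barrier genes are given by family, and differences between families were not tested. Among cornified envelope genes 3 of 36 rose and none fell, with a median of 0.27 (-0.27 to 1.86). Sprr1a, a cross-linked envelope precursor, was at 7674, 13593 and 50328 in basal tumors and 275310.0, 1281440.0 and 259268 in luminal tumors, a log2 rise of 4.70 (SE 0.83, adjusted p = 0.0489). Sprr2f rose by 6.63 log2 units (SE 0.74, adjusted p = 0.0275), from 231, 275 and 1925 to 43140.3, 60029 and 46091, and Sprr2g by 6.49 log2 units (SE 0.96, adjusted p = 0.0399), from 68.7, 212 and 1319 to 16053, 42152 and 21159.9. The Sprr2 genes are near-identical neighbours on chromosome 3, so the share of reads given to each is uncertain. Sprr2a3 had a log2 fold change of 2.41 (SE 0.65, adjusted p = 0.126) and Sprr2a2 one of 1.15 (SE 0.75, adjusted p = 0.485), at 483172, 1271300.0 and 386597 in basal and 942880.0, 1197890.0 and 2302110.0 in luminal tumors, with overlap.

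Claudins and tight junction genes had a median of 0.91 (0.43 to 1.33) over 23 genes, and 1 rose. This was Cldn23, a barrier claudin, at 49.9, 124 and 176 in basal tumors and 5159.8, 19596 and 1789.7 in luminal tumors, with a log2 fold change of 5.76 (SE 0.91, adjusted p = 0.045). Cldn7 had a log2 fold change of 2.38 (SE 0.67, adjusted p = 0.137) and Cldn4 one of 3.43 (SE 1.04, adjusted p = 0.158), and Cldn4 overlapped, with 9037 in CT113 and 7769 in CT126. Mucins and surface glycoproteins had 14 of 15 members positive and a median of 2.32 (1.20 to 2.46), yet none passed the test. The nearest was Psca, prostate stem cell antigen, at 8807, 10829.7 and 72447 in basal and 498318, 906324 and 227318 in luminal tumors, with a log2 fold change of 4.62 (SE 0.85, adjusted p = 0.052). Ly6d, a related lipid-anchored protein, was at 99984, 193089 and 76125 in basal and 838778, 469341 and 659212 in luminal tumors, with a log2 fold change of 2.49 (SE 0.53, adjusted p = 0.0671), and in both genes every luminal tumor stood above every basal tumor.

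Of 30 water, urea and ion channel genes 2 rose and none fell. Slc14a1, a urea transporter, was at 88.8, 857 and 438 in basal tumors and 9379, 13732 and 5881 in luminal tumors, with a log2 fold change of 4.82 (SE 0.79, adjusted p = 0.045). Scnn1b, a subunit of the epithelial sodium channel, was near 0 in basal tumors at 0.858, 0.936 and 0 and at 1595, 343 and 162 in luminal tumors, with a log2 fold change of 8.19 (SE 1.33, adjusted p = 0.045). The median of this list was -0.39 (-0.73 to 0.19) and turned to 0.14 after quantile normalization. Among S100 genes 1 of 17 rose, S100a5, a calcium-binding protein at 1.55, 0 and 1.89 in basal and 1136, 2215 and 126 in luminal tumors, with a log2 fold change of 8.46 (SE 1.44, adjusted p = 0.047). S100a6, another member, had a log2 fold change of 1.32 (SE 0.63, adjusted p = 0.339).

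Basal keratins and surface markers had 2 of 12 members called, both lower, and a median of -2.19 (-2.48 to -1.27). Krt17, a keratin of basal and wounded epithelium, was at 35296, 16184 and 184350.0 in basal tumors and 164, 69.7 and 868 in luminal tumors, and fell by 7.77 on the log2 scale (SE 1.07, adjusted p = 0.036, called in 2 of 6 leave-one-out fits). Krt14 and Krt5, the usual basal markers, did not pass the test, and CT140 held the highest luminal level of both. Krt14 was at 198501, 136976 and 423450.0 in basal and 16891, 2431 and 95586 in luminal tumors, with a log2 fold change of -3.84 (SE 1.16, adjusted p = 0.157), and -5.14 (adjusted p = 0.0343) without CT140. Only that 1 of the 6 leave-one-out fits called Krt14. Krt5 was at 60435, 150656 and 198996 in basal and 43414, 4731 and 91588 in luminal tumors, with a log2 fold change of -2.20 (SE 1.01, adjusted p = 0.324) and overlap. The Krt5 change was -3.09 (adjusted p = 0.128) without CT140 and ranged from -3.09 to -0.95 over the leave-one-out fits. Krt15, another basal keratin, had a positive log2 fold change of 1.63 (SE 1.36, adjusted p = 0.593) but overlapped between the groups. It was at 4615, 180982 and 94536 in basal and 246271, 33876 and 282252 in luminal tumors. Leaving out single libraries moved the Krt15 change between 0.024 and 2.67. Shh, a ligand that basal urothelial cells secrete and a member of this list named after its values were seen, was higher in every luminal tumor at 3922, 1826 and 1222 against 3.42, 266 and 0, with a log2 fold change of 7.61 (SE 1.92, adjusted p = 0.103). Cd44, the hyaluronan receptor, was lower in every luminal tumor at 8045, 4899 and 7892 against 13897, 18395 and 12488, with a log2 fold change of -1.12 (SE 0.33, adjusted p = 0.148).

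Keratins of activated and squamous epithelium had no call among 12 tested, with 7 positive, 5 negative and a median of 1.14 (0.14 to 1.59). Krt6a and Krt16 were among the negative ones. Krt6a was at 84158, 33897 and 132285 in basal tumors and 6903, 1634 and 94166 in luminal tumors, with a log2 fold change of -2.82 (SE 1.29, adjusted p = 0.32), and -4.43 (adjusted p = 0.0363) without CT140. Krt16, its usual partner, was at 7427, 2966 and 31428 in basal and 60.8, 97.6 and 4051 in luminal tumors, with a log2 fold change of -4.92 (SE 1.54, adjusted p = 0.169), and -6.82 (adjusted p = 0.0285) without CT140. In both genes CT140 alone lay within the range of the basal tumors, and only 1 of the 6 leave-one-out fits, that without CT140, called them. Basal and stem transcription factors had 14 of 16 members negative, a median of -1.83 and no call. Trp63, the master regulator of basal epithelium, was at 3758, 4589 and 8824 in basal and 2173, 1212 and 3848 in luminal tumors, with a log2 fold change of -1.30 (SE 0.51, adjusted p = 0.252). Myc was lower in each luminal tumor, with a log2 fold change of -1.16 (SE 0.36, adjusted p = 0.171).

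Hemidesmosome and laminin-332 genes, which fix basal cells to the basement membrane, had lower mean log2 levels in luminal tumors throughout. All 11 members were negative, 2 fell and the median was -2.19 (-2.39 to -1.75 when libraries were left out in turn). In 8 of them every luminal tumor was below every basal tumor, where 11.5% of all genes tested had this order. Lama3, a laminin-332 chain, was at 2865, 4019 and 7543 in basal tumors and 525, 285 and 345 in luminal tumors, a log2 change of -3.57 (SE 0.50, adjusted p = 0.036). Itgb4, the integrin of hemidesmosomes, was at 5417, 9128 and 9039 in basal and 1629.5, 951 and 2229 in luminal tumors, a log2 change of -2.34 (SE 0.42, adjusted p = 0.0493). Lama3 and Itgb4 were each called in 1 of 6 leave-one-out fits. Col17a1, the hemidesmosomal collagen, was at 17763, 21579 and 17014 in basal and 5012, 788 and 2168 in luminal tumors, with a log2 fold change of -3.19 (SE 0.60, adjusted p = 0.0551), which just missed the threshold. CT140 did not stand apart here, and its Itgb4, Lama3 and Col17a1 lay far below all basal tumors. Desmosome genes, which join cells to each other, had a median of -0.78 (-1.00 to -0.42) over 11 genes with no call, and Dsp, desmoplakin, had a log2 fold change of -0.78 (SE 0.37, adjusted p = 0.344).

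Glutathione genes, which conjugate and clear reactive compounds, had one of the higher medians. Of 34 tested, 28 were positive, 3 rose and none fell, with a median of 1.90 (1.63 to 1.999). In 13 of them every luminal tumor was above every basal tumor, where 10.3% of all genes tested had this order. Gstm1, a glutathione transferase, was at 511, 2620.0 and 2745 in basal tumors and 311547, 699466 and 48874 in luminal tumors, a log2 rise of 7.15 (SE 1.00, adjusted p = 0.036). Gsta3, of the alpha class, was at 18.2, 7.20 and 308 in basal and 11779, 8654 and 25664 in luminal tumors, a log2 rise of 8.56 (SE 1.24, adjusted p = 0.038). Mgst3, a microsomal transferase, was at 14313, 23115 and 10155 in basal and 96496, 82706 and 85339.7 in luminal tumors, a log2 rise of 2.55 (SE 0.37, adjusted p = 0.038). CT140 was the lowest luminal tumor for Gstm1 and the highest for Gsta3. Gsta4, which clears lipid peroxidation products, was at 51172, 136604 and 58745 in basal and 398502, 228840.0 and 342669 in luminal tumors, with a log2 fold change of 2.08 (SE 0.51, adjusted p = 0.0935). Glutathione transferases of 1 class resemble each other, and reads shared among them make single members uncertain.

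NRF2 targets had 23 of 26 members positive, 2 called higher and a median of 1.41. Nqo1, a quinone reductase, was at 379.8, 2541 and 1894 in basal tumors and 13781, 15048 and 32365 in luminal tumors, a log2 rise of 3.95 (SE 0.71, adjusted p = 0.0493) that none of the leave-one-out fits called. Taldo1, transaldolase of the pentose phosphate pathway, rose by 2.05 log2 units (SE 0.35, adjusted p = 0.0457), from 7319, 11321 and 13453 to 34119, 52908 and 44014. Genes of the cytochrome P450, UGT and sulfotransferase list, to which alcohol dehydrogenases were added, had 21 of 29 positive, 2 called higher and a median of 0.98 (0.75 to 1.74). Adh1 was at 16.01, 597 and 10.6 in basal and 11949, 54147 and 9950.2 in luminal tumors, a log2 rise of 8.57 (SE 1.43, adjusted p = 0.0457), and Ugt2b34, a glucuronosyltransferase, was at 5.14, 63.5 and 4.63 in basal and 5284, 4893 and 829 in luminal tumors, a log2 rise of 7.73 (SE 1.29, adjusted p = 0.0457). Adh7, the retinol-active dehydrogenase of stomach and bladder epithelium, was higher in every luminal tumor with a log2 fold change of 4.45 (SE 1.52, adjusted p = 0.199). The Adh7 change ranged from 2.43 to 5.98 when single libraries were left out. Por, the electron donor of P450 enzymes, had a log2 fold change of 1.79 (SE 0.35, adjusted p = 0.0581), at 2319, 3057 and 4299 in basal and 12639.9, 12302 and 8118 in luminal tumors.

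Lipid genes are given by list, where 0.971% of all genes tested were called in either direction. PPAR targets had 27 of 41 tested members positive, 1 called and a median of 0.57 (0.40 to 0.92). The called gene was Acaa1b, a peroxisomal thiolase of fatty acid oxidation, at 5.90, 9.21 and 35.1 in basal tumors, 1725, 2523 and 2326 in luminal tumors and 14603 and 2268 in the luminal domains, a log2 rise of 7.31 (SE 0.98, adjusted p = 0.036). Acaa1b shares most of its sequence with Acaa1a. Fabp4, the fatty acid carrier used as a readout of Pparg activity, was at 1082, 75.5 and 48304 in basal tumors and 31727, 310097 and 197271 in luminal tumors, with a log2 fold change of 6.30 (SE 2.02, adjusted p = 0.178). The groups overlapped, since the basal tumor CT115 exceeded the luminal tumor CT126. Fabp5, its relative in skin and other epithelia, showed no common direction at 81411, 7079 and 462032 in basal and 11383, 28923 and 67128 in luminal tumors.

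Sphingolipid genes had 2 of 33 members called, both higher, and a median of 0.57 (0.35 to 0.68). Degs2, which makes phytoceramides, was at 34.8, 8.35 and 354 in basal tumors and 11689.6, 11630.0 and 6350.5 in luminal tumors, a log2 rise of 7.60 (SE 1.18, adjusted p = 0.045). Acer2, a Golgi ceramidase, was at 396, 836 and 1094 in basal and 14303, 45374 and 15733 in luminal tumors, a log2 rise of 4.92 (SE 0.56, adjusted p = 0.0275). Fatty acid synthesis and elongation genes had a median of 0.44 (0.33 to 0.73) over 26, beta-oxidation and ketogenesis genes 0.63 (0.30 to 0.89) over 29, lipid droplet and triglyceride genes 0.94 over 20 and cholesterol synthesis genes 0.35 (0.15 to 0.76) over 27, with no call in any of them. Elovl1, an elongase of long-chain fatty acids, was above all basal tumors in each luminal tumor, with a log2 fold change of 1.71 (SE 0.49, adjusted p = 0.144). Etfb, which passes electrons from beta-oxidation to the respiratory chain, was likewise higher, with a log2 fold change of 1.26 (SE 0.33, adjusted p = 0.112). Plin2, a coat protein of lipid droplets, overlapped at 6171, 2228 and 8771 in basal and 7261, 11682 and 9612 in luminal tumors. Retinoid genes had 1 of 23 called, Rarres2, the chemoattractant chemerin, which was at 799.9, 591 and 517 in basal tumors and 4.81, 8.22 and 1.74 in luminal tumors, a log2 change of -6.89 (SE 1.12, adjusted p = 0.045).

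Nuclear-encoded genes of oxidative phosphorylation were positive in 70 of 75 cases with a small median of 0.43 (0.29 to 0.58) and no call. Uqcr10, a complex III subunit, was at 40801, 33169 and 31207 in basal and 87549.5, 81958 and 51244 in luminal tumors, with a log2 fold change of 1.04 (SE 0.35, adjusted p = 0.193). The 13 mitochondrially encoded genes were all positive with a median of 0.61, again with no call. Both depend on scaling, and after quantile normalization the medians were 0.22 and 0.19. Glycolysis and lactate genes leaned the other way, with 20 of 24 negative and a median of -0.59 (-1.03 to -0.38). Ldha, lactate dehydrogenase, was at 128311, 45178 and 141605 in basal tumors and 26033, 34099 and 111936 in luminal tumors, with a log2 fold change of -1.02 (SE 0.66, adjusted p = 0.483), and CT140 alone was within the basal range.

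By their summed levels, cell cycle genes were below all basal tumors in CT126 and CT132 but not in CT140. G2 and mitosis genes were negative for 57 of 57 members, with a median of -1.74 (-2.72 to -1.08), and none passed the test. Of the 57, 17 had every luminal tumor below every basal tumor, where 11.5% of all genes tested did. Without CT140 the median was -2.72 and 17 of the 57 fell, where 2.52% of all genes tested did. The summed level of the list was 193188, 123207 and 155464 in basal tumors and 26797, 40214 and 148962 in luminal tumors, so CT140 lay between the basal tumors. S phase and DNA replication genes were negative for 48 of 50, with a median of -1.13 (-1.70 to -0.64), no call with all libraries and 6 without CT140, and 12 of the 50 had every luminal tumor below every basal tumor. Their summed level was 145475, 135318 and 125435 in basal and 37118, 63686 and 137542 in luminal tumors. Mki67, the proliferation marker, was at 5589.9, 6901 and 4767 in basal tumors and 690.3, 805 and 3142 in luminal tumors, with a log2 fold change of -2.24 (SE 0.58, adjusted p = 0.11), and -2.93 (adjusted p = 0.0235) without CT140. Only that 1 of the 6 leave-one-out fits called Mki67. Ube2c, a ubiquitin-conjugating enzyme of mitotic exit, was at 11229.7, 9025 and 9929.8 in basal and 1538, 2172 and 10363 in luminal tumors. G1 cyclin, inhibitor and Rb genes had a median of -0.82 over 22 and p53 targets -0.49 (-0.59 to -0.18) over 28, with no call in either, and Ccnd2 and Cdk4 overlapped between the groups.

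Of the FGF, Notch and Wnt genes tested, Hey1 and Wnt2 passed the test and both fell. FGF receptor and feedback genes had 12 of 13 members negative and a median of -2.88 without a call. Fgfbp1, which releases FGF from the matrix, was at 8168, 6088 and 17984 in basal tumors and 120.1, 35.1 and 1819 in luminal tumors, with a log2 fold change of -5.59 (SE 1.26, adjusted p = 0.0793). Dusp6, a feedback phosphatase for ERK, was at 4198, 9392 and 3225 in basal and 719, 1911 and 1015 in luminal tumors, with a log2 fold change of -2.17 (SE 0.53, adjusted p = 0.0949). Notch genes had 18 of 21 negative, a median of -1.34 and 1 call. Hey1, a Notch target, was at 151, 279 and 440.5 in basal tumors and listed at 0 in all 3 luminal tumors, and passed the test with an adjusted p of 0.038, while the luminal domains held 53.7 and 166. Wnt genes had 26 of 34 negative, a median of -1.81 and 1 call, Wnt2, a stromal ligand, at 303, 702 and 302 in basal and 1.16, 2.35 and 2.10 in luminal tumors, with a log2 fold change of -7.16 (SE 1.15, adjusted p = 0.045). Frzb, a secreted Wnt antagonist outside that list, was at 537, 631 and 447 in basal and 0, 1.11 and 0 in luminal tumors, a log2 change of -8.70 (SE 1.15, adjusted p = 0.036), while the luminal domains held 337 and 55.3. Wnt10a, an epithelial ligand, was low in CT126 and CT132 only, at 2279, 6203 and 2219.5 in basal and 342, 99.4 and 4335 in luminal tumors.

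No member passed the test in the EGF, hedgehog and BMP, immediate early and AP-1, NF-kappaB, or interleukin and TNF superfamily lists. EGF receptor and ligand genes had a median of 0.67 (0.13 to 0.77) over 14, hedgehog and BMP genes -0.30 (-0.71 to -0.04) over 21, immediate early and AP-1 genes -0.25 (-0.65 to -0.01) over 26 and NF-kappaB genes -0.36 (-0.61 to -0.13) over 23. Rela, the NF-kappaB subunit p65, was at 1369, 2396 and 2887 in basal and 1416, 2117 and 1486 in luminal tumors, with a log2 fold change of -0.36 (SE 0.42, adjusted p = 0.711). The Rela change ranged from -0.68 to -0.14 over the leave-one-out fits. Icam1, an adhesion molecule for leukocytes and an NF-kappaB target, was lower in each luminal tumor at 763, 704 and 1491 against 2303, 4885 and 3178, with a log2 fold change of -1.83 (SE 0.47, adjusted p = 0.106). Tnfrsf12a, the receptor for TWEAK, was also below all basal tumors, with a log2 fold change of -1.52 (SE 0.40, adjusted p = 0.115). Interleukin and TNF superfamily genes had a median of -1.65 (-1.67 to -0.92) over 36, and Il33, an alarmin, overlapped at 5950.3, 18573 and 2819.7 in basal and 26056, 5197 and 68400.1 in luminal tumors.

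**Figure D4:**
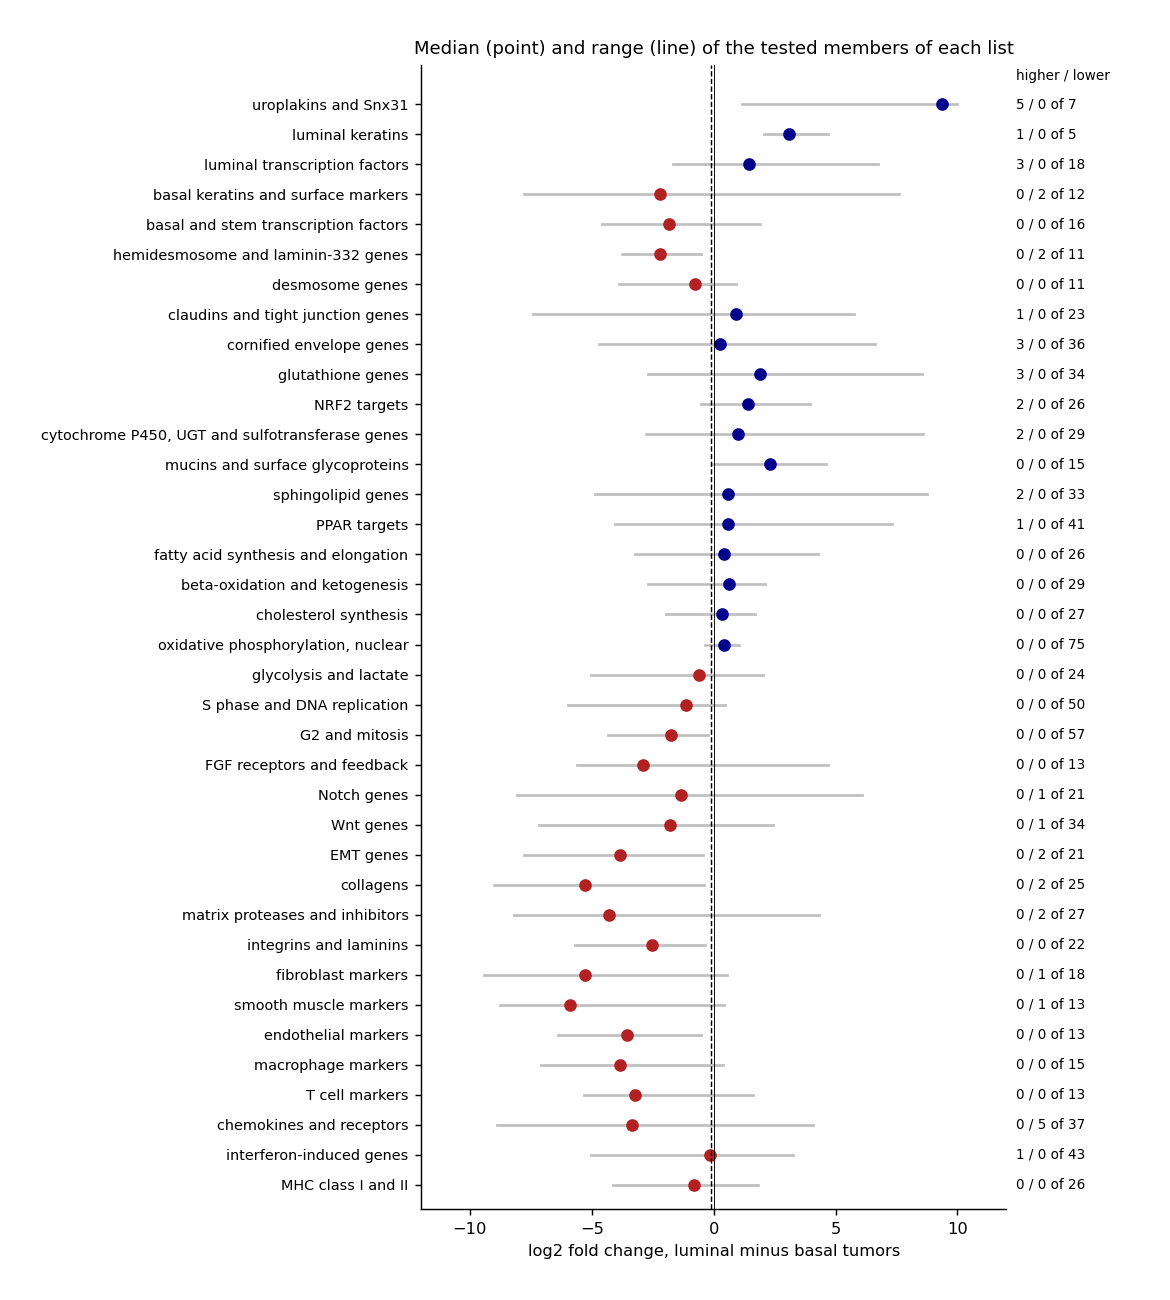
Median log2 fold change (point) and range (line) of the tested members of 37 gene lists, with the dashed line at the median over all genes tested and the counts called higher and lower at the right. Uroplakins stand highest at 9.37, and smooth muscle, collagen and fibroblast lists lowest at -5.89, -5.29 and -5.27.

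Collagens were negative for 25 of 25 members, with a median of -5.29, 2 calls and 14 without CT140. Of all genes tested 0.396% fell, and 2.52% without CT140. Col8a1, a short-chain collagen of vessel walls, was at 5702, 1684 and 749.5 in basal tumors and 4.64, 3.53 and 1.03 in luminal tumors, a log2 change of -9.02 (SE 1.19, adjusted p = 0.036). It was called in 1 of 6 leave-one-out fits, as was Col11a1. Col11a1, a fibrillar collagen of activated fibroblasts, was at 478, 522 and 227 in basal and 0, 0 and 1.79 in luminal tumors, a log2 change of -8.10 (SE 1.21, adjusted p = 0.0408). Col3a1, a fibrillar collagen of connective tissue, was at 24787, 8619 and 37016 in basal and 182, 67.8 and 10590.2 in luminal tumors, with a log2 fold change of -5.29 (SE 1.63, adjusted p = 0.166), and CT140 exceeded CT113. The summed level was 153452, 73018 and 125608 in basal tumors and 10317, 3002 and 28024 in luminal tumors, with 54536 and 25112 in the luminal domains.

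EMT genes were negative for 21 of 21 members, with a median of -3.84, 2 calls and 8 without CT140, where 2.52% of all genes tested fell. Tnc, the matrix protein tenascin C, was at 5442, 3345 and 4104 in basal tumors and 25.7, 15.4 and 309.8 in luminal tumors, a log2 change of -6.36 (SE 1.08, adjusted p = 0.047). Lox, which cross-links collagen, was at 3226, 570.1 and 342 in basal and 10.1, 2.27 and 1.26 in luminal tumors, a log2 change of -7.63 (SE 1.34, adjusted p = 0.0489). Sparc, a matrix protein of stromal cells, was at 24553, 13465 and 53997 in basal and 542, 97.4 and 9497 in luminal tumors, with a log2 fold change of -5.03 (SE 1.42, adjusted p = 0.137). Matrix proteases and their inhibitors had 22 of 27 negative, a median of -4.30 and 2 calls, which became 5 without CT140. Adamts12, a secreted metalloprotease, was at 822, 437 and 462 in basal and 1.16, 0 and 2.06 in luminal tumors, a log2 change of -8.20 (SE 1.18, adjusted p = 0.0376), and Mmp12, the macrophage elastase, was at 17633, 557 and 5347 in basal and 34.6, 41.1 and 23.1 in luminal tumors, a log2 change of -6.83 (SE 1.21, adjusted p = 0.0489). Mmp7, matrilysin, was far highest in CT126 and overlapped, at 19.2, 699.6 and 1069 in basal and 86540.5, 5112 and 274 in luminal tumors. Integrins and laminins outside hemidesmosomes were negative for 22 of 22, with a median of -2.53, no call and 4 calls without CT140, and Itgb1 had a log2 fold change of -1.17 (SE 0.32, adjusted p = 0.13).

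Among the other largest falls, Fbln2, an elastic fibre protein, was at 3937, 278 and 13894 in basal tumors and 15.2, 1.40 and 3.82 in luminal tumors, a log2 change of -8.76 (SE 1.58, adjusted p = 0.0498). Ltbp2, which binds microfibrils, was at 1454, 292 and 63.2 in basal tumors and listed at 0 in all luminal tumors, with an adjusted p of 0.0489. Mill1, a class I-like molecule, was at 1102, 679.8 and 111 in basal and 0, 0 and 2.08 in luminal tumors, and Bex1, a small adaptor protein of nerve cells, was at 596, 99.5 and 755 in basal and 1.35, 0 and 0 in luminal tumors, with adjusted p-values of 0.0457 and 0.045. Of the 58 genes that fell, 16 were listed at 0 in every luminal tumor. Whether such zeros are failed estimates was not tested, and no size is given for those falls.

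Captured areas could hold other cell types, and the markers of fibroblasts, smooth muscle and endothelium had negative medians. Fibroblast markers had 17 of 18 members negative, a median of -5.27 and 1 call, Fbln2, which became 10 calls without CT140, where 2.52% of all genes tested fell. Their summed level was 85779.8, 62447 and 96773 in basal tumors and 1195, 272 and 20473 in luminal tumors, with 33012 and 6840.4 in the luminal domains. Smooth muscle markers had 12 of 13 negative, a median of -5.89 and 1 call, against 5 without CT140. The called gene was Lmod1, an actin-binding protein of smooth muscle, at 257, 150.3 and 66.4 in basal tumors and listed at 0 in luminal tumors (adjusted p = 0.0457). Acta2, smooth muscle actin, was at 12596, 4283 and 39870.5 in basal and 202, 11.6 and 1017 in luminal tumors, with a log2 fold change of -6.55 (SE 1.49, adjusted p = 0.08). Endothelial markers were negative for 13 of 13, with a median of -3.56 and sums of 5452, 9230.3 and 7704 in basal and 978, 819.5 and 5785 in luminal tumors. The smooth muscle sums were 61651, 9780.2 and 59073 in basal and 1472, 2901 and 3716 in luminal tumors. CT140 held the highest luminal level in each of these sums. Their part in the falls of matrix genes was not tested.

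Pericyte markers had 6 of 7 negative, and Rgs5 was the exception at 1681, 1196 and 1208 in basal and 3345, 10239 and 2947 in luminal tumors. Of the skeletal muscle, adipocyte and nerve markers 2, 1 and 3 members were tested, with no call. Red blood cell genes were highest in CT132, with a summed level of 4132, 363591 and 2775 in luminal tumors, 7212, 2088 and 4838 in basal tumors and 48548 and 60607 in the luminal domains.

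**Figure D5:**
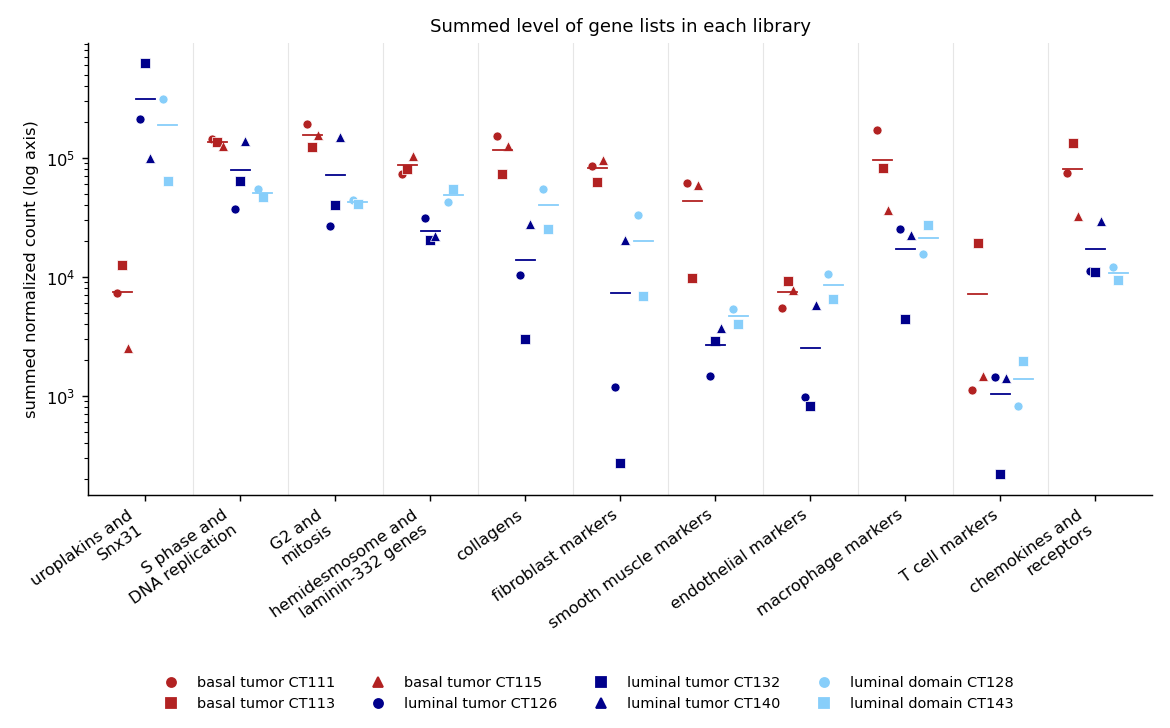
Summed normalized count of the members of 11 gene lists in each library on a log axis, with horizontal bars for group means and the luminal domains in light blue. CT140 (dark blue triangle) lies among the basal tumors (red) for both cell cycle lists and above the other luminal tumors for fibroblast and endothelial markers, but not for hemidesmosome genes.

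Chemokines made up the immune list with the most falls. Of 37 chemokine and receptor genes tested, 34 were negative, 5 fell (9 without CT140) and the median was -3.36. Of all genes tested 0.396% fell, and 2.52% without CT140. Ccl2, which draws monocytes, was at 1326, 1201 and 3328 in basal tumors and 30.3, 0 and 4.34 in luminal tumors, a log2 change of -8.31 (SE 1.42, adjusted p = 0.0473). It was called in 1 of 6 leave-one-out fits. Ccl7, its neighbour on chromosome 11, was at 1304, 216 and 2347 in basal and 3.39, 3.42 and 1.09 in luminal tumors, a log2 change of -7.99 (SE 1.30, adjusted p = 0.045). Ccl11, eotaxin, from the same cluster, was at 443, 19186 and 741 in basal and 3.42, 2.31 and 3.22 in luminal tumors, a log2 change of -8.87 (SE 1.54, adjusted p = 0.0489), and CT113 held most of it. Ccl24, another eotaxin, was at 56.4, 123 and 349.9 in basal tumors and listed at 0 in luminal tumors (adjusted p = 0.0489). Ccl9, a macrophage chemokine named after its values were seen, was at 2978, 1851 and 958 in basal and 8.56, 46.2 and 12.8 in luminal tumors, a log2 change of -6.56 (SE 1.01, adjusted p = 0.045). Ccl8 just missed the threshold, with a log2 fold change of -7.99 (SE 1.51, adjusted p = 0.0551). Cxcl5, a neutrophil chemokine, overlapped at 22884, 40.7 and 2216 in basal and 2650.1, 249 and 10477 in luminal tumors. Saa3, an acute phase protein named after its values were seen, was at 4195, 9990.0 and 13610.1 in basal and 239, 384 and 345 in luminal tumors, a log2 change of -4.71 (SE 0.51, adjusted p = 0.0275) that was called in 4 of 6 leave-one-out fits.

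Leukocyte markers had negative medians and uneven levels among the basal tumors, and none passed the test. Ptprc, the pan-leukocyte gene CD45, was at 1706, 3740.2 and 907 in basal tumors and 81.2, 47.7 and 594 in luminal tumors, with a log2 fold change of -3.75 (SE 1.03, adjusted p = 0.129), and -4.83 (adjusted p = 0.0343) without CT140. Only that 1 of the 6 leave-one-out fits called Ptprc. Macrophage markers were negative for 14 of 15, with a median of -3.83 (-5.59 to -2.35) and no call, and their sums were 172123, 82042 and 36347 in basal and 25106, 4419 and 22348 in luminal tumors. Lyz2, lysozyme of macrophages and neutrophils, was at 127530.0, 19407 and 22585 in basal and 7971, 213 and 2650.3 in luminal tumors, with a log2 fold change of -4.53 (SE 1.26, adjusted p = 0.132). T cell markers had 10 of 13 negative and a median of -3.23 (-3.44 to -1.49) with no call. Their sums were 1118, 19076 and 1468 in basal and 1446, 219.7 and 1421 in luminal tumors, so CT111 and CT115 lay near CT126 and CT140 while CT113 stood far above. Cytotoxic lymphocyte markers summed to 552, 17939.7 and 429 in basal and 1007, 12.1 and 279 in luminal tumors, again with CT113 alone high. Neutrophil markers were high in CT111, CT115 and CT140, with sums of 16923, 546 and 13978 in basal and 298, 1133 and 17297 in luminal tumors. Mast cell markers summed to 242, 30282 and 2698 in basal and 274, 432 and 48.5 in luminal tumors, and the immunoglobulin light chain Igkc was at 2649, 106140.0 and 51.8 in basal and 20.9, 0 and 47.3 in luminal tumors.

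Antigen presentation genes overlapped between the groups in sum. MHC class I and II genes had no call among 26 and a median of -0.79 (-1.75 to 0.28). Their sums were 134907, 1046300.0 and 126164 in basal tumors and 406441, 289813 and 71629 in luminal tumors, with CT113 the highest and CT140 the lowest. Interferon-induced genes had 21 positive and 22 negative members, a median of -0.17 (-0.78 to 0.72) and 1 call. Oasl1, an antiviral protein of the 2'-5' oligoadenylate synthetase family, was at 385, 447 and 206 in basal and 1650.2, 3505 and 5153 in luminal tumors, a log2 rise of 3.23 (SE 0.58, adjusted p = 0.0493) that none of the leave-one-out fits called. Immune checkpoint genes had 11 of 14 negative and a median of -1.37 (-1.66 to -0.84) with no call. B cell and plasma cell markers and dendritic cell markers had medians of -4.45 (-7.00 to -1.58) over 5 and -1.93 (-3.01 to -1.42) over 6, with no call.

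Among the luminal tumors CT140 had the lowest rank correlations with the others, as given above. Its uroplakin sum was the lowest of the 3 and its G2 and mitosis sum the highest. For the attachment genes Lama3, Itgb4 and Col17a1 it nevertheless lay below all basal tumors. Among detoxification genes it held the highest level of the 3 for Akr1b8, Gsta3 and Nqo1 and the lowest for Gstm1, Adh1, Ugt2b34 and Por. Leaving it out also moved the calls of lists not counted that way above. Over all genes tested, rises went from 0.574% to 1.16% and falls from 0.396% to 2.52%, and differences between lists were not tested. Rises went from 1 to 3 of 23 claudins, from 0 to 2 of 15 mucins, from 3 to 5 of 34 glutathione genes and from 2 to 4 of 29 cytochrome P450, UGT and sulfotransferase genes. Falls went from 1 to 5 of 34 Wnt genes, and from 0 to 3 of 21 hedgehog and BMP genes, 3 of 26 immediate early and AP-1 genes, 2 of 13 FGF genes, 2 of 12 activated and squamous keratins, 2 of 13 endothelial markers, 2 of 14 immune checkpoint genes and 2 of 36 interleukin and TNF genes. Calls of the other lists moved by at most 1 in each direction.

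Both luminal domains of mixed lesions were above all basal tumors for 79 of the 84 genes that rose, where 17.5% of all genes tested had this order. Both were below all basal tumors for 42 of the 58 genes that fell, where 19.3% of all genes did. The same basal libraries chose these genes, so the counts are descriptions. A fit of all 8 libraries called 338 genes between luminal and basal tumors (2.2%), which included 133 of the 142. Between luminal tumors and luminal domains limma called no gene of 15357 (0%), with 723 at an unadjusted p below 0.05 and a smallest adjusted p of 0.396. The median log2 difference from the domains was -0.09 over all genes. Collagens had a median of -3.22 against the domains and endothelial markers -3.62. With 2 domains these differences are values without a call.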

How the data were processed

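RNA of laser-captured tumor tissue was amplified with SMART-Seq v4 and Nextera XT, which keep no strand. The authors estimated transcript levels with kallisto 0.44.0, summed them by gene and divided them by DESeq2 1.18 normalization factors within a table of 8 libraries. The deposited values are thus a normalized signal, called normalized counts here, with no read depth, and whole reads could not be recovered. Precision is given by the spread of 3 libraries a group.

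Groups came from the labels, matched by the CT codes of the columns. Log2(normalized count + 1) was tested with limma 3.58.1 (R 4.3.3, moderated variance with a trend, 6 libraries, no covariate) for genes with at least 10 in at least 3 libraries, with Benjamini-Hochberg adjustment and a threshold of 0.05. The procedure was also run on simulated data with independent noise for each gene, so that run says nothing about dependence on single libraries. Named genes were Pparg and markers the study names, the 10 called genes with the highest and the 10 with the lowest log2 fold change, given non-overlapping groups and a mean of at least 100 in the higher group (predicted genes left out), and for each list up to 4 called members and 2 others with the highest means. Others are marked as chosen after their values were seen. Members and lists were chosen with earlier results of these data known. Alternatives were other pseudocounts, filters, variance models, weights and scalings, 8 libraries, and leaving out libraries. Further tables held other libraries, or the authors' own fold changes and p-values, and were not used. Promoters came from RefSeq (GRCm38.p6).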

Additional observations from a re-analysis of the deposited data

How the results depend on the processing

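Of 279 genes named by the rule or called, 33 changed direction under at least 1 alternative, none of them a called gene. Those printed, such as Epcam, Fabp5 and Cxcl5, are given by their levels alone. Calls were less steady, as counted over 248 genes, a set without genes that changed direction. Under the alternatives that kept all libraries, 2025 values stayed on their side of the threshold, 421 lost the call and 32 gained it. Over the leave-one-out fits 826 values stayed, 639 lost the call and 23 gained it. Against 142 calls (84 higher, 58 lower) as reported, the count was 30 (25 and 5) with no filter on low values and 63 (55 and 8) with at least 50 normalized counts. It was 393 (191 and 202) with array weights, 75 (53 and 22) after quantile normalization and 338 (194 and 144) with 8 libraries. In this order, these fits shared 30, 63, 142, 74 and 133 calls with the 142. Without a trend the count was 157 (42 and 115), of which 76 were among the 142. Falls numbered 35 with a pseudocount of 0.5 and 38 with a robust fit. Leaving out 1 library gave 0 to 539 calls, 0 to 170 higher and 0 to 369 lower, with the low end without CT132 and the high end without CT140. Without CT113 and CT140 together, an alternative chosen after seeing the data, 141 genes were called, of which 45 were among the 142. Between luminal tumors and luminal domains, leaving out 1 library gave 0 to 1 calls. The cause of these changes was not tested. Of 67 list medians, 12 changed sign under some alternative, MHC, interferon-induced, cornified envelope, retinoid and channel genes among them. No paired analysis was possible because the labels tie no column to a replicate number. Depth in reads is unknown, so values near 0 cannot be told from missed transcripts.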

Other observations

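Many called genes lie in none of the lists above, 96 of 142, and the following were chosen after their values were seen. The genes of this paragraph rose. Aldh3b2, an aldehyde dehydrogenase, was at 72.3, 403 and 1137 in basal tumors and 12392, 27089.9 and 10684 in luminal tumors, a log2 rise of 5.57 (SE 0.91, adjusted p = 0.045). Ptgr1, which reduces reactive lipid products, was at 992, 3018 and 6664 in basal and 24243, 53175 and 91976 in luminal tumors, a log2 rise of 4.18 (SE 0.72, adjusted p = 0.0488). Prdx3, the mitochondrial peroxiredoxin, was at 2655, 2395 and 3041 in basal and 7522, 16481 and 10610.1 in luminal tumors, a log2 rise of 2.03 (SE 0.36, adjusted p = 0.0489). Phyh, which starts the breakdown of branched fatty acids in peroxisomes, was at 585, 989 and 805 in basal and 5274, 18884 and 6623 in luminal tumors, a log2 rise of 3.49 (SE 0.52, adjusted p = 0.0408). Sptssb, a small subunit of the enzyme that starts sphingolipid synthesis, was at 4347, 15059 and 6501 in basal and 210248, 109351 and 49178 in luminal tumors, a log2 rise of 3.79 (SE 0.62, adjusted p = 0.045). Ildr1, a protein of tricellular junctions, rose by 6.68 log2 units (SE 1.04, adjusted p = 0.045), from 21.8, 168 and 12.1 to 2318, 6809 and 3453. Gcnt3, which branches mucin sugars, rose by 6.76 log2 units (SE 1.04, adjusted p = 0.045), from 12.02, 72.9 and 10.1 to 2345, 4778 and 1228. Hsd17b6, Card14, Dmrtc1a and Pkhd1 were listed at 0 in every basal tumor and present in every luminal tumor.

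Others were among the genes that fell. Mgp, the matrix Gla protein that blocks calcification, was at 46928, 5242 and 5504 in basal tumors and 112, 31.6 and 30.2 in luminal tumors, a log2 change of -7.83 (SE 0.96, adjusted p = 0.036). Ccdc80, a secreted matrix protein, was at 3433, 3179.7 and 1819.7 in basal and 39.9, 1.94 and 71.1 in luminal tumors, a log2 change of -7.04 (SE 1.25, adjusted p = 0.0493). Fstl1, a secreted glycoprotein of mesenchymal cells, was at 4302, 4075 and 8146 in basal and 91.6, 98.97 and 691 in luminal tumors, a log2 change of -4.82 (SE 0.81, adjusted p = 0.0457). Runx3, a transcription factor of lymphocytes and other cells, was at 219, 529 and 344 in basal and 1.16, 2.35 and 0 in luminal tumors, a log2 change of -7.47 (SE 1.20, adjusted p = 0.045). Actn1, an actin cross-linker, was at 4374, 2887 and 3215 in basal and 126, 69.9 and 295 in luminal tumors, a log2 change of -4.63 (SE 0.64, adjusted p = 0.036). Tmsb10, which binds actin monomers, was at 43994, 23218 and 58116 in basal and 5291, 11033 and 5789 in luminal tumors, a log2 change of -2.49 (SE 0.44, adjusted p = 0.0493). Clic4, a chloride channel family protein of the cell cortex, was at 3416, 8466 and 4749 in basal and 297, 522 and 979 in luminal tumors, a log2 change of -3.27 (SE 0.55, adjusted p = 0.0457). In these genes no luminal tumor reached the lowest basal tumor.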
